A study of Arabidopsis thaliana with 60 samples.

Results

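The 150 nuclear genes whose transcripts stood lowest after 8 h of MLACC expression in wild-type Arabidopsis leaves, relative to the control leaves of the same time, are described here across all times and in a second genetic background. MLACC, a coiled-coil domain, comes from MLA, an immune receptor of barley, and its expression in leaves sets off an immune response without a pathogen. Counts were turned into CPM, the count of a gene divided by all counts on Arabidopsis genes of the library and scaled to a common total, and the genes were ranked by log2((MLACC + 1)/(mYFP + 1)) of the 8 h group means. The 150 lowest were taken from 10308 nuclear genes with at least 10 CPM in the 8 h control, of 32399 nuclear genes in the count table. The 8 h values of the wild type therefore chose the genes and are given as a description only. The tests below compare groups that the choice did not use. The wild-type 8 h libraries still enter the shared estimate of spread in the tests within wild type and of the difference between backgrounds.

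In the wild-type table, 1 Col-0 line carried DEXp:MLACC-mYFP and 1 carried DEXp:mYFP, the fluorescent tag alone, both under a dexamethasone-inducible promoter. In the other table, the same MLACC construct sat in the ppsdes background (Col-0 with the alleles pen2-1 and pad4-1, with sag101-2 and dde2-2, and with ein2-1 and sid2-2), which is depleted of salicylic acid, jasmonate and ethylene signalling and of further defence components, and its control was the untransformed sextuple mutant. All plants were 4 weeks old, leaves of every group were infiltrated with 1 µM dexamethasone, and discs pooled from 6 plants per library were taken at 0, 2, 4, 6 and 8 h with 3 biological replicates, giving 60 libraries in 20 groups. MLACC is represented by 1 transgenic line in each background, the line in ppsdes from its own transformation, and mYFP by 1 line in Col-0. The ppsdes control lacks the mYFP transgene, and the study notes a lower MLACC protein level in ppsdes. Background, line and dose of MLACC therefore cannot be told apart.

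Growing and photosynthesising leaves spend much of their transcription on cell wall remodelling, on the light reactions and on plastid metabolism. Plants that recognise a pathogen commonly lower such transcripts while defence transcripts rise. Pectin lyases and pectin methylesterases soften or restructure the pectin of the wall, expansins loosen it, and the chloroplast NDH complex passes electrons around photosystem I.

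Before the members are compared, the libraries themselves need describing, because those of MLACC in wild type did not move together. The libraries held 18.2 to 25.75 M gene counts in the wild-type table and 14.08 to 25.95 M in the ppsdes table. At 4 h, the median log2 ratio of the 150 genes to the mean of the mYFP libraries was -1.36 in MLACC replicate 1, but -3.48 and -3.71 in replicates 2 and 3, and 140 of the 150 genes were highest in replicate 1. At 8 h the 3 replicates stood at -2.78, -4.84 and -1.71, with 146 genes lowest in replicate 2. The summed level of 7 mesophyll markers moved with these differences: 35567, 22408 and 25516 CPM in the MLACC libraries at 4 h against 55668 to 57331 CPM in mYFP, and 17171, 6829 and 20164 CPM at 8 h against 42177 to 46518 CPM. The sum of 5 epidermis and trichome markers was 313.6, 59.0 and 46.4 CPM in MLACC at 4 h against 456 to 673 CPM in mYFP. The sum of the vasculature markers moved less. It was 483 to 820 CPM in MLACC at 4 h against 795 to 882 CPM in mYFP, and 655 to 783 CPM at 8 h against 882 to 963 CPM. Of 5 guard cell markers at 8 h, KAT1 had a fold change of 1.08 (log2) and MYB60, HT1, SLAC1 and FAMA had -1.62, -1.21, -1.02 and -0.61, and their sum was 67.6 to 77.5 CPM in MLACC and 65.7 to 72.5 CPM in mYFP. In ppsdes at 8 h, the mesophyll sum was 38445 to 48477 CPM with MLACC and 47587 to 54102 CPM without, and the guard cell sum 34.3 to 45.04 CPM against 76.0 to 86.0 CPM. The sum of 5 root markers was at most 0.167 CPM in any library. The study detected cell death in plants expressing MLACC from 4 h after induction on, by ion leakage and trypan blue staining. The part of cell death and of the shifts above in the results was not tested. In bulk leaf discs, fewer cells of a type and less RNA per cell cannot be told apart.

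**Figure D1:**
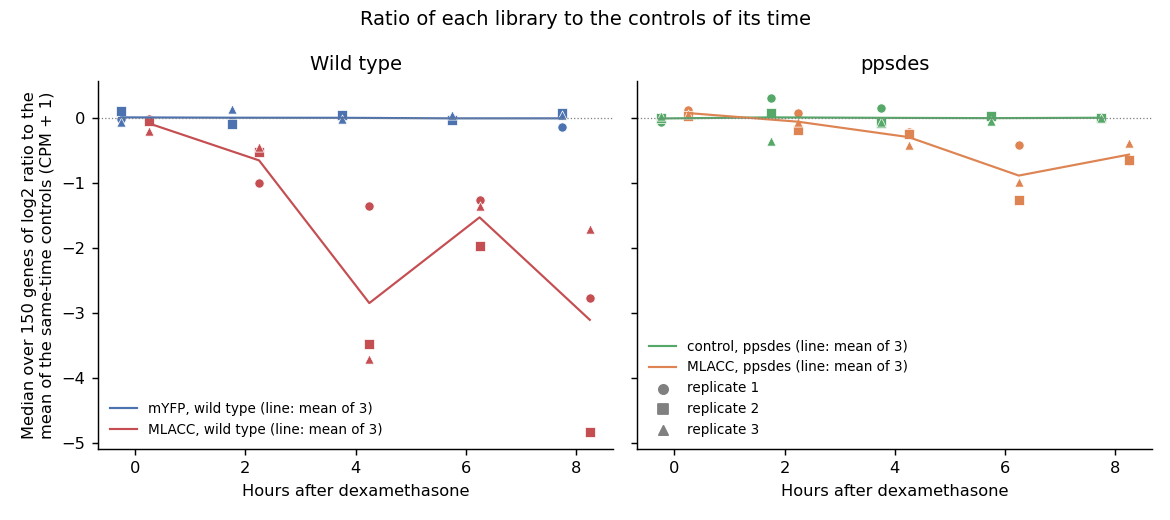
Median over the 150 genes of the log2 ratio of each library to the mean of the control libraries of its time (CPM + 1), against hours after dexamethasone, for wild type (left) and ppsdes (right). Each point is a library, marked by replicate, and lines join the means of 3. In wild type with MLACC the 4 h libraries lie at -1.36, -3.48 and -3.71 and the 6 h libraries between -1.97 and -1.26; in ppsdes the lowest library lies at -1.26, at 6 h.

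The 8 h values that chose the genes ran from -4.90 (log2 ratio) for AT1G67750, a pectate lyase, to -2.459 for the chloroplast calcium sensor CaS. The genes just inside the limit were ABC4, PnsL2, ALDH11A3, CGLD27 and CaS. Just outside it stood BR6OX2, an enzyme of brassinosteroid synthesis, PnsL4, a subunit of the NDH complex, AT1G09750, the aquaporin PIP3 and CRR3, between -2.4591 and -2.4561, so the limit falls on no gap. The 150 genes took 4.04% ± 0.25 (SD, n = 3) of all counts in mYFP at 8 h and 0.632% ± 0.55 in MLACC. Compared with 0 h of its own line, the 8 h gap was made in different ways. In 59 genes the mYFP level stayed within 2-fold while MLACC fell at least 2-fold, in 45 mYFP rose at least 2-fold while MLACC stayed below a 2-fold rise, in 22 mYFP rose and MLACC fell, in 14 both fell, and in 10, such as GER3 and COR15B, both rose.

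The sequences upstream of the genes are shown for members of different roles, all taken from those with a motif marked below. They give the reader the regulatory stretch beside the values that follow and do not stand for the 150 genes. Each window is the 150 bases before the annotated gene start in the RefSeq annotation of TAIR10.1, written 5′ to 3′ on the strand of the gene, and overlaps no other annotated gene. The windows are AT1G67750 (chr1:25401364-25401513, + strand), KCS8, a fatty acid elongase (chr2:6542016-6542165, +), FLA8, a fasciclin-like arabinogalactan protein of the wall (chr2:18744323-18744472, -), and AT5G14920, a gibberellin-regulated peptide (chr5:4825991-4826140, +). Capitals mark, in the first, the reverse complement GGGNCC of the core GGNCCC bound by TCP factors, and in the others the evening element AAATATCT or its reverse complement AGATATTT. The TATAAA that FLA8 and AT5G14920 hold on either strand is not marked.
AT1G67750: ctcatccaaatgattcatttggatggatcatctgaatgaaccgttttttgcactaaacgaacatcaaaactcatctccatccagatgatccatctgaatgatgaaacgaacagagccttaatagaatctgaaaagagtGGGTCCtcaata
KCS8: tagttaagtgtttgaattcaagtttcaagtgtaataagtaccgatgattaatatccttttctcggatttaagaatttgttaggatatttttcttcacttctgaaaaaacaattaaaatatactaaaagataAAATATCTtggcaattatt
FLA8: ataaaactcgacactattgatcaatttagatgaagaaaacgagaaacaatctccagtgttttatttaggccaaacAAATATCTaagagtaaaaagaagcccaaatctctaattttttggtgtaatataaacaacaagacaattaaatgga
AT5G14920: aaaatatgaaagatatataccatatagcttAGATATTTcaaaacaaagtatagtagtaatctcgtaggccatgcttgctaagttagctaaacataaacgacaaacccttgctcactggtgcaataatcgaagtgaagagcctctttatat

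Over 250 bases upstream of the gene start on both strands, the evening element AAATATCT was present in 8.72% of 149 members with a window, 5.52% of 10241 protein-coding genes at 10 CPM or more and 4.79% of 27443 protein-coding genes in all. GGNCCC was found in 12.8%, 8.75% and 7.35%. The W-box core TTGAC, in contrast, was found in 35.6% of the members, 43.6% of the genes at 10 CPM or more and 44.9% of all, and the site II element TGGGCC (a C after it makes it overlap GGNCCC) in 10.7%, 19.1% and 13.7%. The G-box CACGTG (6.04%, 7.53% and 6.49%), the I-box GATAAG (15.4%, 13.1% and 12.3%), TGACG (16.1%, 19.3% and 18.6%), CGCG (8.72%, 10.9% and 10.1%), TATAAA (37.6%, 45.3% and 47.3%) and AAACCCTA (2.68%, 3.53% and 4.49%) were searched in the same way. These shares describe letters in a window and were not tested.

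In wild type at 2 h no member passed the threshold (edgeR, false discovery rate under 0.01 and absolute log2 fold change over 1), where 0.117% of 19654 genes tested were called lower. At an unadjusted p under 0.05, 2 members were lower, and DESeq2 called 0. The median fold change of the members was already -0.56 (log2), with 141 of 150 below 0, against 0.01 over all genes. At 0 h edgeR and DESeq2 called 0 members lower (1 at an unadjusted p under 0.05) and the median was -0.14.

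At 4 h, 131 of the 150 genes were lower with MLACC, where 17.6% of all genes tested were called lower. The median of the members was -2.61 (log2), against 0.02 over all genes, and all 150 fold changes lay below 0. All 3 MLACC libraries lay below all 3 mYFP libraries in 147 members, as in 44.8% of the 10308 genes at 10 CPM or more. None of the 4 h libraries had chosen the genes. The count fell to 71 and 70 without MLACC replicate 2 or 3 of 4 h, to 24 when only the 6 libraries of 4 h entered the fit, and to 26 with the difference of the lines at 0 h subtracted (median -2.48). The 19 genes that did not pass included FRO6, FRO7, EXP3, EXPA11, KCS8, GolS3 and LHCB2.3.

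The 3 lowest fold changes at 4 h were those of pectin enzymes. Of 9 members of this kind, 8 were lower, with a median of -3.23 (log2). The pectate lyase gene AT1G67750 (chromosome 1, 25401514 to 25403595) stood at 39.5, 42.1 and 37.7 CPM in mYFP and at 1.33, 0.385 and 0.0434 CPM in MLACC at 4 h. The groups were apart by more than an order of magnitude, and the fold change was -5.97 ± 0.82 (log2, SE, adjusted p = 2.2e-06). AT1G10640, a pectin lyase-like protein, stood at 5.54, 5.27 and 5.54 CPM against 0.358, 0.0549 and 0.130 CPM. It was lower by -4.70 ± 0.92 (adjusted p = 0.00013), and so was its relative AT1G60590, with 36.2, 31.1 and 27.5 CPM in mYFP and 3.53, 0.440 and 0.261 CPM in MLACC (-4.38 ± 0.96, adjusted p = 0.00041). For PME5, a pectin methylesterase, the levels were 7.84, 12.0 and 12.3 CPM against 0.666, 1.26 and 0.825 CPM (-3.36 ± 0.46, adjusted p = 2.1e-06). In PME5 the 3 MLACC replicates stood within 2-fold of each other. AT5G63180 was the pectin enzyme that did not pass, at -2.66.

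**Figure D2:**
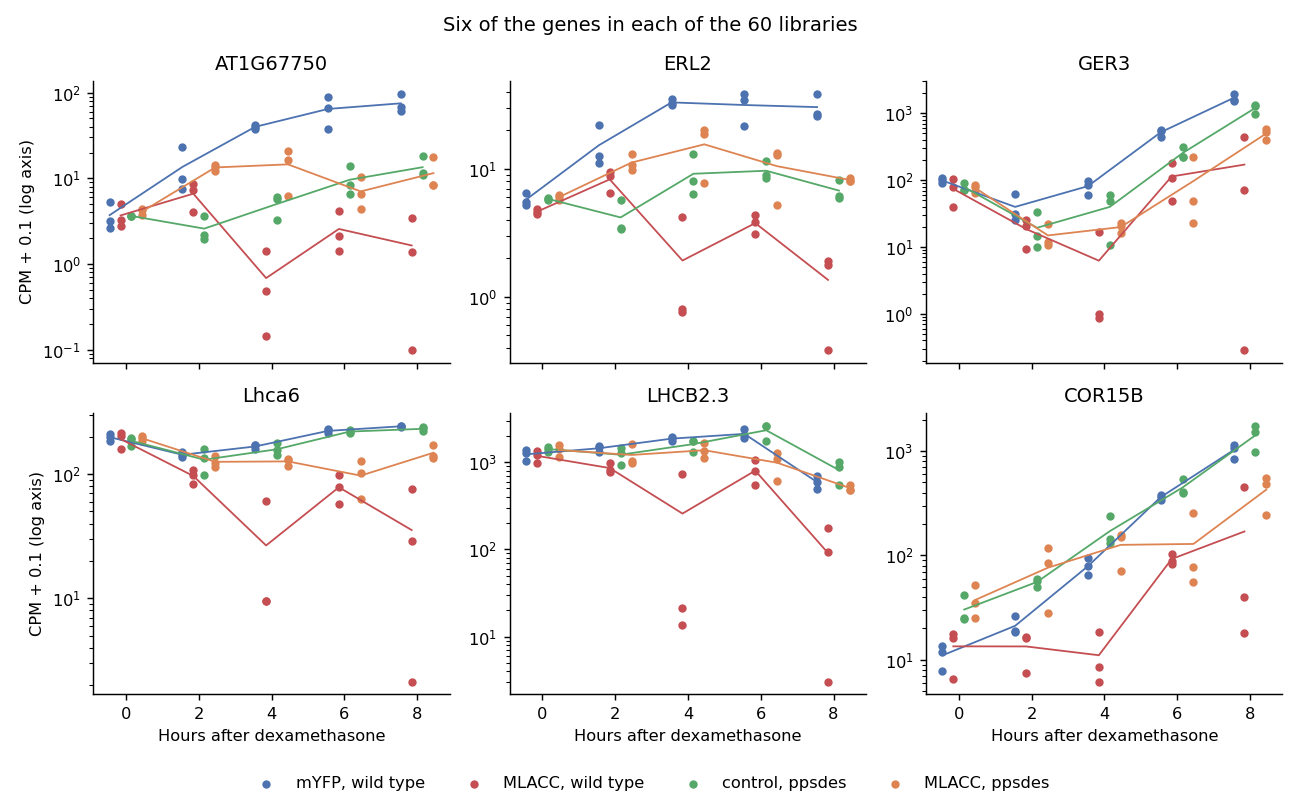
CPM + 0.1 on a log axis against hours after dexamethasone for 6 of the genes, a point per library and lines through the means of 3. In AT1G67750 the mYFP level rises to 60.6 to 96.7 CPM at 8 h while the 3 MLACC libraries in wild type lie between 0 and 3.36 CPM; in COR15B both MLACC lines rise after 4 h but stay below their controls.

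Among 28 further cell wall and secreted proteins, 22 were lower at 4 h. GER3, a germin-like protein of the apoplast, went from 98.6, 85.1 and 60.3 CPM in mYFP to 16.7, 0.769 and 0.912 CPM in MLACC (-3.65 ± 1.19, adjusted p = 0.0093). Here replicate 1 stood more than an order of magnitude above the other MLACC libraries. AGAL2, an alpha-galactosidase, stood at 36.3, 46.6 and 52.9 CPM against 9.12, 4.12 and 2.17 CPM (-3.02 ± 0.40, adjusted p = 1.6e-06). FLA8 stood at 179, 183 and 140 CPM against 44.6, 15.3 and 9.99 CPM (-2.73 ± 0.73, adjusted p = 0.0024). XTH9, a xyloglucan transglycosylase, was lower by -2.997 and the expansin EXPA6 by -2.28. The expansins EXP3 (-2.26) and EXPA11 (-2.93) missed the threshold, and in EXP3 the MLACC libraries stood at 8.50, 0.769 and 0.304 CPM. The subtilisin-like protease SLP3 (-1.37) and the leucine-rich repeat protein AT4G18670 (-1.15) passed with the smallest shifts of the group.

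Of 18 genes for growth, hormones and development, 17 were lower at 4 h. ERL2, a receptor kinase of the ERECTA family that acts in stomatal patterning and organ growth, stood at 31.4, 34.9 and 32.3 CPM in mYFP and 4.10, 0.659 and 0.695 CPM in MLACC. This is a change of -4.06 ± 0.48 (adjusted p = 3.7e-07), the lowest outside the pectin enzymes. The auxin importer AUX1 stood at 56.8, 66.2 and 56.7 CPM against 18.9, 4.84 and 1.91 CPM (-2.71 ± 0.60, adjusted p = 0.00046). The auxin exporter PIN7 (-2.27) and the auxin response factor ETT (-2.68) were lower as well. GASA6, a gibberellin-regulated peptide, was lower by -3.77 ± 1.17 (adjusted p = 0.0069) with mYFP at 48.6, 40.4 and 123 CPM and MLACC at 14.9, 0.165 and 0.130 CPM. Its relative GASA4 was lower by only -1.07 ± 0.32 (adjusted p = 0.0053) with 46.2, 47.6 and 49.0 CPM against 21.6, 21.7 and 17.2 CPM. HTH, needed to keep young organs from fusing, the receptor kinase BAM2, the beta-tubulin TUB5 and the shade-regulated homeobox gene HAT1 were lower by -2.96, -2.51, -2.54 and -2.58. bHLH071, a relative of the stomatal basic helix-loop-helix factors, missed the threshold at -2.48.

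The 9 genes of the chloroplast NDH complex, its supercomplex and its assembly were all lower at 4 h, between -3.12 and -1.65 (log2). Lhca6, the light-harvesting protein that links the complex to photosystem I, stood at 171, 157 and 170 CPM in mYFP and 60.8, 9.45 and 9.38 CPM in MLACC (-2.56 ± 0.67, adjusted p = 0.0018). CRR7, an assembly factor, stood at 24.3, 21.4 and 24.8 CPM against 7.32, 0.165 and 0.217 CPM (-3.12 ± 0.78, adjusted p = 0.0013). The subunits NdhM (-2.96), PnsB3 (-2.75), PnsL3 (-2.12) and PnsL2 (-1.85) were lower too. A list of 33 nuclear genes of this complex was set up after the members were seen and includes the 9 members. Of the 33, 25 were lower at 4 h and 12 at 6 h, with medians of -1.95 and -1.42. Over all genes tested, 17.6% and 10.5% were called lower. PnsL3, PnsB3, CRR1, CRR42, NdhN and PnsL2 overlap another gene on the opposite strand, by 713 bases in CRR1, and as the library kit does not mark strand, reads of such pairs cannot be told apart.

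Among the 9 genes of photosynthesis and photorespiration, 7 were lower at 4 h. The carbonic anhydrase CA2, which feeds carbon dioxide to the leaf's carbon fixation, stood at 1791, 1470 and 1894 CPM against 845, 433 and 429 CPM (-1.45 ± 0.40, adjusted p = 0.0031). LHCB2.3, a light-harvesting protein of photosystem II, missed the threshold at -2.81 ± 0.98 (adjusted p = 0.015), with MLACC libraries at 738, 21.0 and 13.5 CPM against 1736 to 1942 CPM in mYFP. The aldolase FBA5 missed it at -2.78. All 14 genes for plastid vitamins, quinones, starch and organelle gene expression were lower. THI1, which makes the thiazole moiety of thiamine and had the highest level of all members, went from 3010, 3183 and 2983 CPM to 1453, 515 and 560 CPM (-1.73 ± 0.42, adjusted p = 0.001). THIC, which makes the pyrimidine moiety of thiamine, was lower by -1.93, and ABC4, needed for plastid quinones, by -2.01.

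Light, clock and stress regulators counted 14 of 15 lower genes at 4 h. BBX27, a B-box zinc finger protein, stood at 55.4, 62.1 and 74.0 CPM in mYFP and 24.0, 1.81 and 1.48 CPM in MLACC (-2.74 ± 0.73, adjusted p = 0.0022). DREB1A, a cold-inducible transcription factor, stood at 4.59, 3.77 and 2.82 CPM against 1.28, 0.659 and 0.304 CPM (-2.17 ± 0.63, adjusted p = 0.0043). COR15B, a plastid protein of cold acclimation, was lower by -2.71 ± 0.69 (adjusted p = 0.0016) with 93.8, 78.4 and 64.3 CPM against 18.5, 8.35 and 6.08 CPM. GolS3, a galactinol synthase of the cold response, did not pass at -2.34. Of 9 lipases and lipid genes, 6 were lower. ESM1, an epithiospecifier modifier that steers glucosinolate breakdown, stood at 1526, 2298 and 2177 CPM against 549, 28.5 and 50.3 CPM (-3.19 ± 0.92, adjusted p = 0.0042). All 18 further metabolic genes were lower, among them the alcohol dehydrogenase CAD9 with 412, 407 and 239 CPM against 103, 27.6 and 20.8 CPM (-2.68 ± 0.68, adjusted p = 0.0015). Of 7 transport and metal genes, 5 were lower, such as the proton pump HA11 at -2.09. The ferric reductase FRO6 missed the threshold at -3.11 ± 1.03 (adjusted p = 0.011) with MLACC libraries at 125, 1.32 and 2.26 CPM.

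At 6 h fewer members passed. Of 150, 45 were lower, where 10.5% of all genes tested were called lower. The median was -1.66 (log2), all 150 fold changes were below 0, and the 3 MLACC libraries lay below the 3 mYFP libraries in 144 members, as in 37.3% of the genes at 10 CPM or more. The count was 7 with the 0 h difference subtracted (median -1.49), 15 to 29 when 1 of the 6 libraries of this time was left out, lowest without MLACC replicate 2, and 141 when only those 6 libraries entered the fit. It was 102 when the 3 MLACC libraries of 8 h, which spread widely, were left out of the fit. In 140 members the ratio at 4 h was below that at 6 h, but a test of the difference between both times called 0 members higher at 6 h, where 0.148% of all genes were called (edgeR; 1 at an unadjusted p under 0.05; DESeq2 was not run on it). Lower at both 4 and 6 h were 43 members, a description only, as the share of all genes lower at both was not counted.

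The lowest fold changes at 6 h were those of AT3G23470, AT1G67750 and PME5, and in all 3 the control had risen. From 0 to 6 h the mean of AT1G67750 went from 3.62 to 64.4 CPM in mYFP and from 3.59 to 2.47 CPM in MLACC, and that of PME5 from 2.78 to 25.7 CPM and from 2.39 to 1.58 CPM. AT1G67750 stood at 66.2, 37.3 and 89.7 CPM in mYFP and 4.06, 2.05 and 1.30 CPM in MLACC (-4.81 ± 0.72, adjusted p = 8.8e-06). PME5 stood at 18.6, 29.3 and 29.2 CPM against 1.74, 1.42 and 1.58 CPM (-4.11 ± 0.44, adjusted p = 1.2e-07). For ERL2 the change was -3.20 ± 0.45 and for the glutathione transferase GSTU26 -3.09 ± 0.35, with 12.6, 7.42 and 15.5 CPM against 1.74, 1.38 and 1.34 CPM. AT3G23470, annotated as a cyclopropane-fatty-acyl-phospholipid synthase, and the uncharacterised gene AT3G41762 parted from the control late. AT3G23470 stood at 1.19, 1.08 and 1.77 CPM in mYFP at 4 h against 0.410, 0.330 and 0.912 CPM, and at 6.90, 6.42 and 11.7 CPM at 6 h against 0.365, 0.125 and 0.158 CPM (-5.33 ± 0.52, adjusted p = 1.4e-07). These were the 2 members whose fold change was lower at 6 h than at 4 h in the test of that difference, by -4.26 (adjusted p = 0.0048) and -2.35 (adjusted p = 0.0061), where 0.254% of all genes were called.

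In the control lines many of the genes rose over the time course. In mYFP, 20 members were higher at 4 h than at 0 h and 6 lower, where 7.67% and 5.45% of all genes were called, and at 6 h 31 were higher and 6 lower, where 10.3% and 9.56% were called. At 6 h 69 of the 150 mean levels in mYFP had at least doubled, against 14.1% of the 10308 genes at 10 CPM or more. At 8 h 77 had, against 15.8%, but the mYFP values of 8 h helped choose the genes and this count is a description only. The ppsdes control, which played no part in the choice, rose too: 67 members were higher at 8 h than at 0 h and 14 lower, where 10.3% and 10.4% of all genes were called. Of its mean levels 72 of 150 (48.0%) had at least doubled at 8 h, against 12.95% of the 10308 genes at 10 CPM or more. DREB1A went from at most 0.106 CPM at 0 h to 17.0 to 20.7 CPM at 6 h in mYFP and from at most 0.0875 CPM to 18.1 to 35.6 CPM at 8 h in the ppsdes control. COR15B went from 24.5 to 41.4 CPM at 0 h to 988 to 1747 CPM at 8 h in the ppsdes control (5.47 ± 0.60, adjusted p = 9.2e-08) and GER3 from 71.7 to 92.0 CPM to 988 to 1343 CPM (3.86 ± 0.64, adjusted p = 2.8e-05). THI1, PIN7, ETT and bHLH071 were also higher there at 8 h, whereas HA11, HTH, XTH9, 4CL3 and CaS were lower. Time after infiltration and time of day cannot be told apart in this design.

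**Figure D3:**
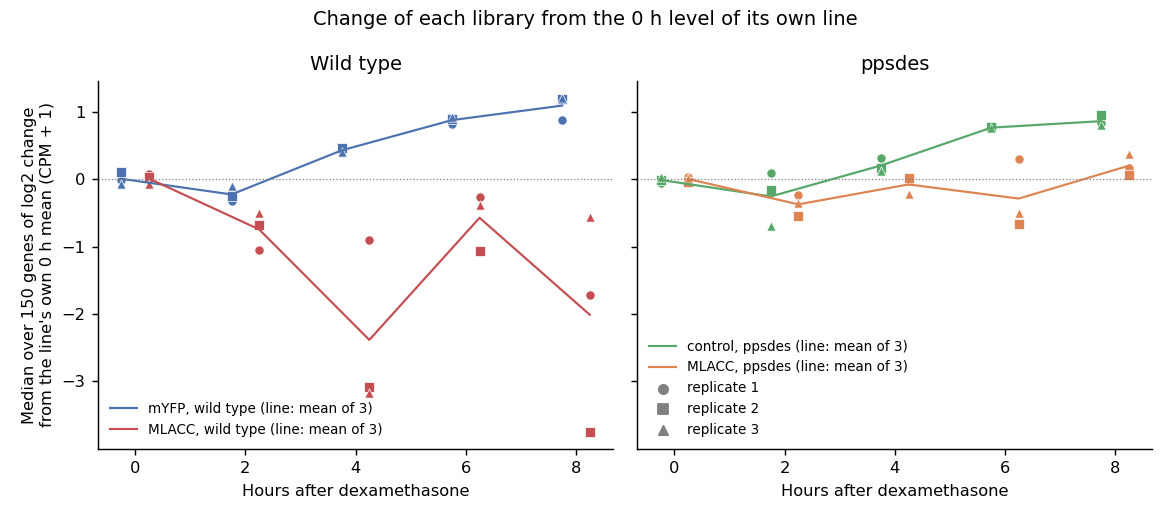
Median over the 150 genes of the log2 change of each library from the 0 h mean of its own line (CPM + 1), against hours after dexamethasone, for wild type (left) and ppsdes (right). Points are libraries, marked by replicate, and lines join the means of 3. Both control lines climb above 0 from 4 h on. MLACC libraries in wild type all lie below 0 at 2, 4, 6 and 8 h, and those in ppsdes lie between -0.67 and 0.38.

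In ppsdes the first members passed as lower at 6 h. At 2 h 0 members were lower with MLACC (edgeR; 4 at an unadjusted p under 0.05; DESeq2 0), and 5 were higher, where 0.38% of all genes were called higher. These were AT1G67750 (2.42 ± 0.42), the GDSL-type esterase AT1G28570 (2.20 ± 0.33), GSTU26 (1.59 ± 0.30), SLP3 (1.53 ± 0.21) and AT4G18670 (1.18 ± 0.15). AT1G67750 stood at 3.54, 1.87 and 2.06 CPM in the control and at 13.6, 14.2 and 12.1 CPM with MLACC at 2 h, with no overlap. In wild type at the same time it stood at 7.44, 9.77 and 23.3 CPM in mYFP and 3.91, 7.13 and 8.54 CPM in MLACC. At 4 h 0 members were lower in ppsdes (edgeR; 40 at an unadjusted p under 0.05; DESeq2 2), where 0.141% of all genes were called, and the median was -0.38.

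At 6 h 69 members were lower in ppsdes, where 4.13% of 19216 genes tested were called lower, and the median was -1.08 (log2). All 3 MLACC libraries lay below all 3 control libraries in 97 members, as in 18.4% of the genes at 10 CPM or more. At 8 h 29 were lower, where 3.44% were called, with a median of -0.76 and 99 members without overlap, as in 21.7% of the genes at 10 CPM or more. With the 0 h difference subtracted, the counts were 35 at 6 h and 6 at 8 h. The 6 h count was 17 without MLACC replicate 2, the library of lowest depth, 9 when only the libraries of 6 h entered the fit, and 90 without MLACC replicate 1, in which 130 of the members stood highest. The 8 h count was 7, 12 and 15 without MLACC replicate 2, MLACC replicate 1 or control replicate 3. Lower at 4 h in wild type were 131 members and at 6 h in ppsdes 69, and 58 were in both groups. In ppsdes 25 were lower at both 6 and 8 h. The share of all genes lower in both was not counted, so these joint counts are a description and no measure of agreement.

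Of the NDH group 7 of 9 were lower in ppsdes at 6 h. Lhca6 stood at 214, 224 and 219 CPM in the control and 126, 62.7 and 102 CPM with MLACC at 6 h (-1.37 ± 0.20, adjusted p = 1.7e-05), and at 221 to 236 CPM against 136 to 171 CPM at 8 h (-0.83 ± 0.19, adjusted p = 0.0021), where the fold limit and not the p-value was missed. Of the 33 genes of the NDH list, which includes the 9 members, 15 were lower at 6 h and 2 at 8 h. Over all genes tested, 4.13% and 3.44% were called lower. Of the 14 genes for plastid vitamins, starch and organelle gene expression 9 were lower at 6 h, such as THI1 with 6362, 5473 and 5522 CPM against 4450, 2070 and 3015 CPM at 6 h (-1.06 ± 0.20, adjusted p = 0.00019). LHCB2.3 stood at 1761, 2621 and 2595 CPM against 1086, 614 and 1259 CPM and was lower at 6 h by -1.42 ± 0.27 (adjusted p = 0.00029).

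The 29 members lower at 8 h in ppsdes counted 9 further cell wall and secreted proteins, 7 growth and hormone genes, 5 light and stress genes, 3 pectin enzymes, 2 metabolic genes, 2 lipid genes and 1 gene without a role, and thus no gene of the plastid groups. Their lack of calls is not a lack of a fall. Group medians were -0.75 (log2) for NDH, -0.78 for plastid vitamins and organelle genes, -0.48 for photosynthesis and -0.74 for pectin enzymes. The lowest fold changes among the called members were those of AT1G10640 (-2.56 ± 0.65), AT4G28780 (-2.34 ± 0.52), AT1G60590 (-2.26 ± 0.60), EXP3 (-2.15 ± 0.52) and DGR2 (-2.03 ± 0.53), with adjusted p-values between 0.0014 and 0.0048. AT4G28780, a GDSL-type lipase, stood at 98.4, 73.2 and 76.5 CPM in the control and 17.7, 8.18 and 29.5 CPM with MLACC. EXP3 stood at 30.5, 26.2 and 31.0 CPM against 8.32, 3.99 and 10.1 CPM, so that its libraries did not overlap, while it had missed the threshold in wild type at 4 h. DREB1A (-1.67), COR15B (-1.92), GASA4 (-1.47), AUX1 (-1.22), ETT (-1.11), FLA8 (-1.52), BAM2 (-1.22) and bHLH071 (-1.61) were lower at 6 and 8 h alike. GASA4 stood at 74.5, 107 and 102 CPM against 37.97, 31.3 and 47.6 CPM at 8 h (adjusted p = 7.8e-06). The lipase AT3G16370 (-1.73), the xyloglucan transglycosylase XTH9 (-1.15) and HTH (-1.32) were lower at 8 h too, as were AT5G01015 (-1.76), AT5G15780 (-1.44) and AT5G13140 (-1.24).

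**Figure D4:**
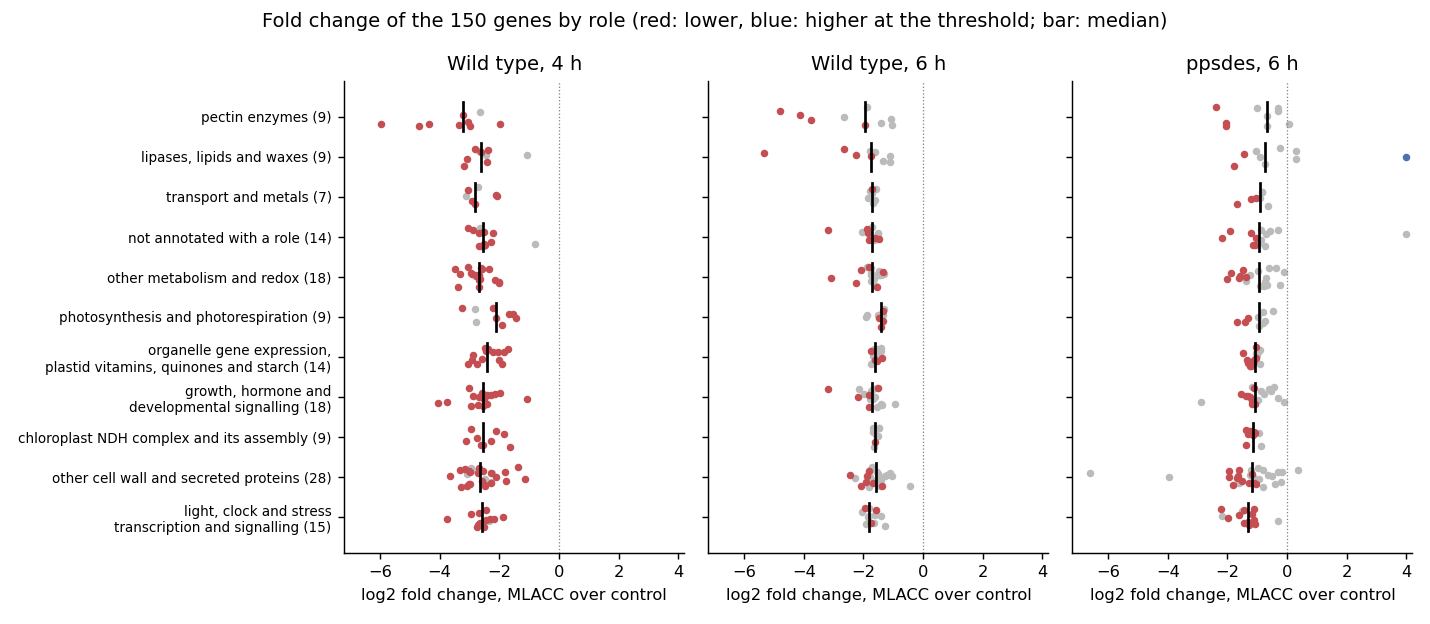
log2 fold change of MLACC over control for each of the 150 genes, grouped by role (number of genes in brackets), in wild type at 4 and 6 h and in ppsdes at 6 h. Red points were lower and blue points higher at the threshold, grey points did not pass, bars are group medians, and 2 points beyond the axis limits of -7 and 4 are drawn at the limit. In wild type at 4 h every median lies below -2, and in ppsdes at 6 h the medians lie between -1.30 and -0.67.

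The members were chosen by their fall in wild type alone, so the choice itself favours a weaker fall in ppsdes. With this limit, the difference between both backgrounds was tested itself. At 2 h it passed for 2 members, where 0.135% of 19929 genes tested were called higher: AT1G28570 differed by 2.65 ± 0.48 (adjusted p = 0.002) and GSTU26 by 2.26 ± 0.45 (adjusted p = 0.0064). The count was 0 to 3 when 1 of the 12 libraries was left out, and 0 with the 0 h difference subtracted (edgeR; 8 at an unadjusted p under 0.05 before that step, and 5 by DESeq2). At 4 h the effect of MLACC was higher in ppsdes than in wild type for 75 of the 150 members, where 10.1% of the genes tested were called higher. The median difference was 2.25 (log2) and all 150 differences lay above 0. The effects already differed at 0 h by a median of 0.23, with 24 members below 0, and with that difference subtracted 9 members passed and the median was 1.99. The count was 138 without MLACC replicate 1 of wild type at 4 h, and 29 and 26 without replicate 2 or 3. It was 40 and 45 without ppsdes control replicate 2 or 3, and 49 and 46 without ppsdes MLACC replicate 1 or 2. Of the 9 pectin enzymes 7 passed, with a median difference of 3.35 over the group, and of 18 genes for growth and hormones 12 passed. AT1G67750 differed by 7.505 ± 0.89 (adjusted p = 3.9e-08), ERL2 by 4.81 ± 0.58 (adjusted p = 6.2e-08), AGAL2 by 3.52 ± 0.43 (adjusted p = 6.4e-08) and PME5 by 4.00 ± 0.48 (adjusted p = 5.1e-08). ERL2 stood at 12.9, 6.26 and 7.94 CPM in the ppsdes control and 20.1, 18.4 and 7.69 CPM with MLACC at 4 h, with overlap. AGAL2 stood at 27.1, 22.3 and 23.5 CPM against 37.1, 38.2 and 29.7 CPM, where each MLACC library was above each control.

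**Figure D5:**
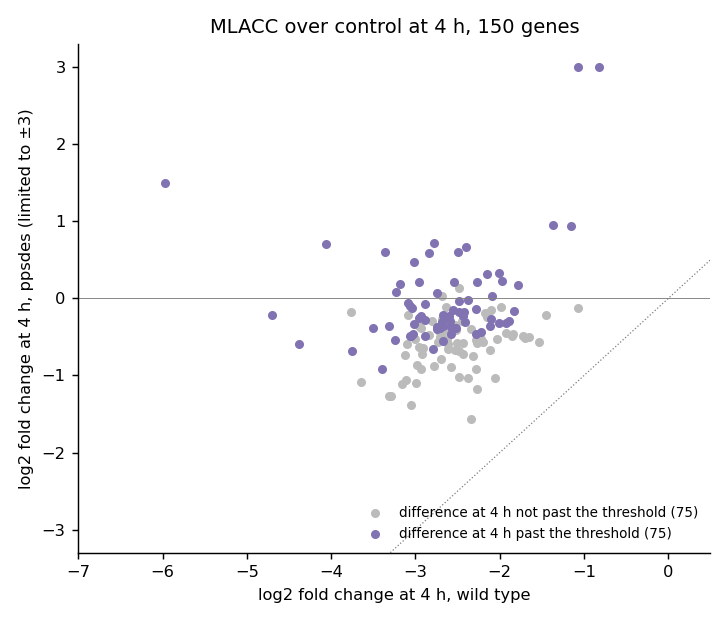
log2 fold change of MLACC over control at 4 h in ppsdes against that in wild type, a point per gene; the dotted line marks equal values, and 2 genes beyond ±3 in ppsdes (AT3G23470 and AT3G41762) are drawn at the limit. Purple points, 75 of 150, passed the test of the difference. All points lie above the dotted line.

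At 6 h the difference passed for 11 members, where 1.52% of all genes were called higher, and the median difference was 0.53. With the 0 h difference subtracted 2 members passed and the median was 0.27. The 11 were AT3G23470, AT3G41762, AT1G67750 (4.14 ± 0.79), PME5 (3.44 ± 0.46), ERL2 (3.09 ± 0.56), GSTU26 (2.97 ± 0.45), AT1G28570 (2.95 ± 0.46), the patatin-like protein PLP9 (2.56 ± 0.61), SLP3 (2.28 ± 0.35), AGAL2 (2.22 ± 0.41) and AT4G18670 (1.53 ± 0.37). The 5 members higher with MLACC in ppsdes at 2 h were all among them. None of the 11 was lower with MLACC in ppsdes at 6 or 8 h. AGAL2 stood at 46.6, 42.5 and 36.6 CPM in the ppsdes control and 48.1, 44.1 and 32.5 CPM with MLACC at 6 h, with the groups overlapping. PME5 stood at 6.90, 7.27 and 7.20 CPM against 5.21, 6.18 and 4.11 CPM, a change of -0.67 ± 0.17 (adjusted p = 0.003) that stayed under the fold limit. Levels in the controls are given side by side. AT1G67750 stood at 60.6, 96.7 and 67.4 CPM in mYFP and 18.0, 10.8 and 11.3 CPM in the ppsdes control at 8 h, and ERL2 at 25.9, 38.3 and 26.4 CPM against 8.07, 5.86 and 6.01 CPM. These levels were not tested against each other.

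AT3G23470 and AT3G41762 had means under 0.1 CPM at every time in the ppsdes control, which carries no transgene, so that for both genes the background and the type of control cannot be told apart. The same limit holds for the other members that were higher with MLACC in ppsdes at 2 h or that differed between backgrounds. For GSTU26, 2 h means were 4.98 CPM in mYFP, 2.96 in MLACC, 4.29 in MLACC in ppsdes and 1.43 in the ppsdes control. For AT1G28570 they were 6.76, 4.70, 4.46 and 0.989 CPM in the same order. At 2 h the mean of AT3G41762 was 6.28 CPM in mYFP, 4.18 CPM in MLACC, 2.08 CPM in MLACC in ppsdes and 0.0795 CPM in the ppsdes control. AT3G23470 had 0 counts in the ppsdes control at 0, 2, 4 and 6 h, while with MLACC it stood at 3.77, 5.40 and 1.60 CPM at 6 h, at least 70.2-fold above the limit of 3 counts over the group. In wild type it rose in mYFP, to 10.1, 13.5 and 9.82 CPM at 8 h, and stood at 0.272, 0.332 and 0.536 CPM with MLACC. It was the member called higher in ppsdes at 6 h and at 8 h, where 10.5% and 9% of all genes were called higher. AT3G41762 had 0 counts in the ppsdes control at 4, 6 and 8 h and 0.908, 1.28 and 0.953 CPM with MLACC at 6 h, at least 21.6-fold above the same limit, a difference that did not pass (adjusted p = 0.013). In mYFP it stood at 15.9, 20.5 and 14.5 CPM at 6 h and at 0 CPM in the 3 libraries of 0 h. AT3G05730, a defensin-like protein, and AT3G16670, an Ole e 1-like secreted protein, were among the 5 lowest genes of the choice but varied widely between replicates. AT3G05730 stood at 50.1, 0.361 and 43.9 CPM in mYFP at 4 h and AT3G16670 at 35.7, 0 and 28.4 CPM, in the same order of replicates, and neither passed in any comparison of MLACC with its control.

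The wider families show how far the members stand for them, by lists compiled from annotation and not by how genes moved. The counts are to be read against the 17.6% of all genes called lower and 21.4% called higher at 4 h, 10.5% and 18.8% at 6 h, and 4.13% lower in ppsdes at 6 h. Of 108 pectin enzymes tested in wild type 31 were lower and 20 higher at 4 h, with a median of -0.52, and 8 of the 31 were members. Of 22 expansins 7 were lower and 3 higher, and of 25 xyloglucan transglycosylases 6 were lower and 4 higher. Of 111 auxin genes 36 were lower and 21 higher. Of 55 photosystem and light-harvesting genes 28 were lower and 1 higher at 4 h, 25 and 1 at 6 h, and in ppsdes 6 were lower at 6 h. Of 27 genes of chlorophyll and carotenoid synthesis, none of which is a member, 17 were lower and 1 higher. Of 17 aliphatic glucosinolate genes, likewise without a member, 13 were lower at 4 h, with a median of -2.21, while at 6 h the median was -0.85 and the only gene called was higher. In contrast, of 36 class III peroxidases 7 were lower and 17 higher, and PRXR1, at -2.48, was the only member among them. Of 212 receptor-like kinases 60 were lower and 68 higher.

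Of the 150 genes, 149 are protein-coding. Their median transcript length was 1673 bases and their median number of exons 4, against 1829 and 6 in 10242 protein-coding genes at 10 CPM or more, and 12.8% had a single exon, against 8.41%. They lay on all 5 chromosomes, 38, 21, 31, 26 and 33 on chromosomes 1 to 5. There were 7 pairs of neighbouring members, among them the ferric reductases FRO6 and FRO7, the aldolases FBA7 and FBA5, and the transferase gene GSTU26 with AT1G17200. In 35 members the gene overlaps another annotated gene. LHCB2.3 overlaps one on the opposite strand by 595 bases, and reads of such pairs cannot be told apart without strand. AT4G24810 overlaps AT4G24820 on the same strand by 762 bases, and FBA5 overlaps FBA7 by 109 bases. Strand would not separate the reads of these pairs.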

How the data were processed

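RNA of leaf discs was sequenced in 60 libraries of 20 groups. The authors checked reads with FastQC 0.11.2, mapped them with TopHat2 2.0.10 to TAIR10 and assigned them to genes with HTSeq; the deposited values are whole-number counts, and the summary rows of the counter, 8.4 to 16.8% of a library, were left out. From these counts CPM were computed over all Arabidopsis rows. Wild-type and ppsdes tables were fitted separately, and together for the difference of effects, with edgeR 4.0.16 (limma 3.58.1, R 4.3.3), by its quasi-likelihood test with Benjamini-Hochberg adjustment over all genes tested and every group in the fit; a gene was called at a false discovery rate under 0.01 and an absolute log2 fold change over 1. On simulated data for MLACC against mYFP at 4 h, 200 of 200 changed genes were recovered and 1 other of 18749 genes was called. The simulated counts had the same fixed spread in every gene, and only well-expressed genes were changed. They did not imitate the gaps between the real MLACC replicates, so the recovery checks the code and not the error of the calls above. DESeq2 1.42.0, other normalization, filters and subsets were alternatives.

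The members and gene lists were chosen with earlier results of these data known, and the role groups and the list of NDH genes after the members had been seen. Named by rule were the members lowest in the choice, at 4 h, in ppsdes at 8 h and in the difference at 6 h, the most abundant ones, those at the limit, the lowest of each gene list, and those that moved most in mYFP; other genes named, such as AT1G28570, CRR7 and AT4G18670, were chosen after their values were seen. Replicate numbers paired libraries in ppsdes at 6 h (correlations of 0.487, 0.157 and 0.387) and 8 h (0.261, 0.381 and 0.366) by every pair lying above 0.1. Replicates are those of the labels, and the library kit does not mark strand. Windows start at the annotated gene start. Sequences were read from the RefSeq genome and annotation of TAIR10.1.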

Additional observations from a re-analysis of the deposited data

Results flagged for a closer look

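Results whose effect of MLACC differed between wild type and ppsdes, by the edgeR test of the difference itself, are listed here as values. The number of members past the threshold was 2 at 2 h, 75 at 4 h and 11 at 6 h. The choice of the members by their fall in wild type favours such differences. At 2 h these were AT1G28570 (2.65, log2 difference of effects, ppsdes minus wild type) and GSTU26 (2.26). At 6 h the difference was 4.14 for AT1G67750, 3.44 for PME5, 3.09 for ERL2, 2.97 for GSTU26, 2.95 for AT1G28570, 2.56 for PLP9, 2.28 for SLP3, 2.22 for AGAL2 and 1.53 for AT4G18670. For AT3G23470 and AT3G41762 the fitted differences at 6 h were 14.48 and 10.58; their ppsdes control had 0 counts at this time, so these values depend on the prior count of the fit and are no bound.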

How the results depend on the processing

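Counts of members past the threshold moved with the libraries in the fit and with the treatment of 0 h; the cause was not tested. Fitted on the groups compared alone, the count lower with MLACC was 24 at 4 h and 141 at 6 h in wild type and 9 at 6 h in ppsdes, and the mYFP line had 37 higher and 19 lower at 4 h than at 0 h and 63 higher and 14 lower at 6 h. Once the 0 h difference was taken off, counts were 26 and 7 in wild type at 4 and 6 h, 35 and 6 in ppsdes at 6 and 8 h, and 0, 9 and 2 for the difference between backgrounds at 2, 4 and 6 h. Without the MLACC libraries of 8 h, a fit chosen after seeing the data, 102 were lower in wild type at 6 h. At a false discovery rate under 0.05 with no fold limit the counts were 109 in wild type at 6 h, 4, 114 and 84 in ppsdes at 4, 6 and 8 h, 5 and 118 for the difference at 2 and 4 h, and 12 lower at 4 h and 49 higher at 6 h in mYFP. DESeq2 gave 2 lower in ppsdes at 4 h and 5 for the difference at 2 h. With a pseudocount of 5 CPM, 88 of the 150 members were chosen again.

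Leaving out 1 library at a time gave 70 to 143 lower in wild type at 4 h, 15 to 29 at 6 h, 17 to 90 and 7 to 30 in ppsdes at 6 and 8 h, 0 to 3, 26 to 138 and 9 to 11 for the difference at 2, 4 and 6 h, 14 to 17 higher and 3 to 5 lower in mYFP at 4 h (3 without mYFP replicate 2 or 3 of 4 h), 22 to 26 higher and 4 to 5 lower at 6 h, and 99 to 132 members chosen again. The 2 h difference went to 0 or 1 without any of the 3 wild-type MLACC libraries, ppsdes MLACC replicate 3, mYFP replicate 3 or any ppsdes control.

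With the replicate block the counts were 135 and 52 in wild type at 4 and 6 h, 78 and 33 in ppsdes at 6 and 8 h, and 2, 86 and 11 for the difference at 2, 4 and 6 h, and no count moved by over 1.5 times. Outside ppsdes at 6 and 8 h and both 0 h comparisons, the pairs' correlations were not all above 0.1, and the libraries share only a number.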
